A study of Mus musculus with 2 samples.

Results

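The RAS-RAF-MEK-ERK kinases carry signals from receptors at the cell surface to the nucleus. Of this core, 7 genes were followed in hippocampal Cajal-Retzius (CR) cells: the RAS GTPase genes *Hras* and *Nras*, the RAF kinase genes *Araf* and *Braf*, the MEK kinase genes *Map2k1* and *Map2k2*, and *Mapk3*, which encodes the kinase ERK1. They were found by gene symbol among the 32285 genes in the files, and all 7 of 7 were present. Other RAS, RAF and ERK paralogs were not analysed here.

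Activated receptor tyrosine kinases, among them the receptors for fibroblast growth factors and neurotrophins, load RAS proteins with GTP through exchange factors such as SOS. GTP-bound RAS recruits RAF kinases to the membrane, RAF phosphorylates MEK, and MEK phosphorylates ERK. Active ERK phosphorylates many proteins, and it relieves repression by capicua, the DNA-binding repressor encoded by *Cic*, of genes such as *Etv4* and *Etv5*. CR cells are early-born neurons of the marginal zone that secrete reelin and that mostly die in the postnatal brain.

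RNA of single cells was read from hippocampi of mice at postnatal day 14 (P14), after sorting of tdT-positive, DAPI-negative cells. The control library pooled 4 conditional heterozygotes (3 male, 1 female), whose genotype was *ΔNp73-Cre; Cic flox/+; tdT*. The knockout library pooled 4 littermates (2 male, 2 female), whose genotype was *ΔNp73-Cre; Cic flox/flox; tdT*. Both groups therefore carried the Cre driver, which acts in CR cell progenitors, the tdT reporter and at least 1 floxed *Cic* allele, and the Cre line does not recombine in every CR cell. With 1 library for each genotype there was no replicate to check a difference against, and no significance test was run.

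Cells were the barcodes with at least 2000 UMIs (unique molecular identifiers, each marking 1 captured RNA molecule) and at least 5 UMIs of the reelin gene *Reln*, which gave 1003 of 455605 control and 390 of 252107 knockout barcodes, with no cell barcode in common. The median control cell held 6224 UMIs (range 2012 to 31769) and the median knockout cell 6664 (range 2769 to 33453). Each of 9 markers of CR cells was found in 25% or more of the cells of either library. Of 11 lists for other cell types, the precursor and mural lists had 1 such marker each and the rest had none. The CR cell list summed to 15127 CPM in control cells and 14711 CPM in knockout cells. *Reln*, 1 of the 9 markers, gave 8171 and 7869 CPM of these sums. Cells were chosen by *Reln* UMIs, so its presence in every cell was fixed in advance. The highest sums among the other lists were mural (81.9 and 75.9 CPM), precursor (60.6 and 78.4 CPM), microglia (36.5 and 31.8 CPM) and endothelial (33.8 and 29.3 CPM), and the GABAergic list summed to 1.06 and 0.723 CPM. CPM are counts per 1000000 UMIs outside mt-, Rpl, Rps and Mrp genes. Values in parentheses after a CPM, a share or a ratio are 95% intervals (exact Poisson, Clopper-Pearson, and exact for the ratio of 2 Poisson counts), and they cover counting error only.

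*Cic* itself stood at 58.9 CPM in control cells and at 51.3 CPM in knockout cells, a ratio of 0.871 (0.714 to 1.06). Reads of the 3′ end can lie outside a deleted stretch, and the exons flanked by the loxP sites are not given in the sources used here, so this RNA level does not check the deletion.

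The RAF genes held most of the core's captured RNA. *Braf* (ENSMUSG00000002413) lies on chromosome 6 of GRCm38 from 39603237 to 39725463 on the minus strand. It gave 2306 UMIs in control cells and 871 in knockout cells, or 349 CPM (335 to 364) and 315 CPM (294 to 336). *Araf* (ENSMUSG00000001127), on the X chromosome from 20797814 to 20860519, gave 1285 and 514 UMIs, or 195 CPM (184 to 205) and 186 CPM (170 to 203). These were the highest and second highest of the 7 levels in both libraries, and *Braf* stood above 98.3% of all genes with a UMI in control cells.

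MEK and ERK genes came next. *Map2k2* (ENSMUSG00000035027; chromosome 10, 81105915 to 81133975), which encodes MEK2, had 479 and 187 UMIs, or 72.5 CPM (66.2 to 79.3) in control cells and 67.6 CPM (58.2 to 78.0) in knockout cells. *Mapk3* (ENSMUSG00000063065; chromosome 7, 126759601 to 126765819) had 451 and 163 UMIs, or 68.3 CPM (62.1 to 74.9) and 58.9 CPM (50.2 to 68.7). *Map2k2* and *Mapk3* did not differ beyond counting error in either library. *Map2k1* (ENSMUSG00000004936; chromosome 9, 64185770 to 64253631), which encodes MEK1, had 222 and 110 UMIs, or 33.6 CPM (29.3 to 38.3) and 39.7 CPM (32.7 to 47.9).

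The RAS genes were among the lowest. *Hras* (ENSMUSG00000025499; chromosome 7, 141189105 to 141194005) had 290 and 99 UMIs, or 43.9 CPM (39.0 to 49.3) in control cells and 35.8 CPM (29.1 to 43.6) in knockout cells. *Nras* (ENSMUSG00000027852; chromosome 3, 103058285 to 103067914) had 201 and 71 UMIs, or 30.4 CPM (26.4 to 34.9) and 25.7 CPM (20.0 to 32.4). In the control, *Hras* stood above *Map2k1* and *Nras*, whose intervals overlapped. In the knockout, the intervals of *Map2k1* and *Hras* overlapped and so did those of *Hras* and *Nras*, but not those of *Map2k1* and *Nras*. The libraries count 3′ ends, so these levels do not scale with transcript length, but the capture of 3′ ends can differ from gene to gene, and the order is one of captured molecules.

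Within each pair of paralogs 1 gene held more UMIs. *Braf* had 1.79 times as many UMIs as *Araf* in control cells (1.67 to 1.92) and 1.70 times as many in knockout cells (1.52 to 1.89). *Map2k2* had 2.16 times as many as *Map2k1* in the control (1.84 to 2.54) and 1.70 times in the knockout (1.34 to 2.17). *Hras* had 1.44 times as many as *Nras* in the control (1.201 to 1.74) and 1.39 times in the knockout (1.02 to 1.92). The order within every pair was the same in both libraries.

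Detection in single cells followed these levels and was sparse for all members but the RAF genes. A *Braf* UMI was found in 82.3% of control cells (79.7 to 84.6) and 78.2% of knockout cells (73.8 to 82.2), and an *Araf* UMI in 66.7% (63.7 to 69.6) and 62.8% (57.8 to 67.6). The lowest shares were those of *Nras*, at 16.6% (14.3 to 18.997) and 15.9% (12.4 to 19.9). Droplets without cells, with medians of 89 and 44 UMIs, held a *Braf* UMI in 0.603% and 0.346% and an *Nras* UMI in 0.1997% and 0.0805%. After every cell was thinned to 2000 UMIs, *Braf* was seen in 46.2% (43.0 to 49.3) and 40.3% (35.4 to 45.3) of cells and *Nras* in 6.18% (4.77 to 7.86) and 4.10% (2.36 to 6.58). In thinned cells the variance of a member's UMIs divided by their mean lay between 0.946 (*Map2k1*, knockout) and 1.19 (*Braf*, knockout), where a Poisson count gives 1. Most thinned cells held no UMI of a sparse member, which keeps this value near 1, so it does not show an even spread over cells. Without thinning, where cells also differ in depth, it lay between 1.10 (*Nras*, knockout) and 2.06 (*Araf*, knockout). At the thinned depth, a missing member in a cell is not readable as absent RNA.

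At 4000 UMIs per cell (901 control and 363 knockout cells had as many), at least 1 UMI of the RAS genes was found in 20.98% of control and 17.1% of knockout cells, of the RAF genes in 84.5% and 81.5%, of the MEK genes in 31.2% and 32.2%, and of *Mapk3* in 19.9% and 17.1%. All 4 tiers were seen together in 1.11% and 1.10% of these cells. The median cell showed 2 of the 7 members in both libraries.

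**Figure D1:**
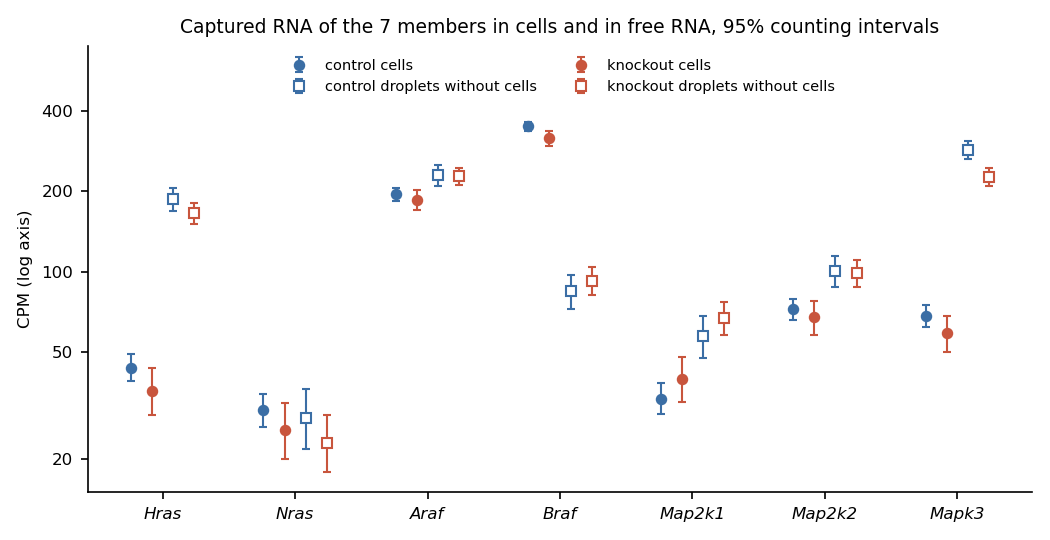
CPM of the 7 members (vertical log axis) in control and knockout cells (filled circles) and in droplets of 20 to 100 UMIs without cells (open squares), with 95% Poisson intervals. *Braf* is higher in cells than in droplets, *Hras* and *Mapk3* are lower, and the control and knockout points of each gene lie close together.

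Free RNA in droplets without cells gave a different order of the members. In droplets of 20 to 100 UMIs (29040 in the control, median 89 UMIs; 75813 in the knockout, median 44 UMIs), *Mapk3* was the highest member in the control, at 285 CPM (263 to 308), and stood at 226 CPM (209 to 244) in the knockout. *Hras* was at 187 CPM (169 to 206) and 165 CPM (151 to 181), and *Braf* at only 84.4 CPM (72.7 to 97.5) and 92.4 CPM (82.0 to 104). The ratio of CPM in cells to CPM in droplets was therefore 4.13 (3.56 to 4.83) for control *Braf* and 3.40 (2.97 to 3.91) for knockout *Braf*. It was 0.235 (0.202 to 0.274) and 0.216 (0.172 to 0.269) for *Hras*, and 0.240 (0.212 to 0.271) and 0.261 (0.218 to 0.310) for *Mapk3*.

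The other members lay between these extremes. The ratio was 1.07 (0.801 to 1.45) and 1.11 (0.789 to 1.57) for *Nras*, 0.848 and 0.817 for *Araf*, 0.722 and 0.685 for *Map2k2*, and 0.586 and 0.592 for *Map2k1*. Among 9353 genes with at least 100 UMIs in cells and droplets of the control together, the ratio of *Hras* was above 5.48% of genes, that of *Mapk3* above 5.85% and that of *Braf* above 87.6%. If each cell held as much free RNA as an average droplet, it would make up 4.85% of the *Hras* UMIs, 4.76% of the *Mapk3* UMIs and 0.276% of the *Braf* UMIs of control cells. The control droplets had a median of 89 UMIs, close to their upper limit of 100. Droplets with more free RNA may thus have been left out, and these shares and the subtraction of free RNA may be too low in the control.

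The members also differ in the length of their loci, and the ratio of cells to droplets moved with this length over all genes. *Hras* spans 4.90 kb, *Mapk3* 6.22 kb, *Nras* 9.63 kb, *Map2k2* 28.1 kb, *Araf* 62.7 kb, *Map2k1* 67.9 kb and *Braf* 122 kb in GENCODE M21. In the control, the median ratio was 0.412 over 1812 genes under 10 kb, 0.741 over 2866 genes from 10 to 30 kb, 1.44 over 3036 genes from 30 to 100 kb and 3.23 over 1637 longer genes. In the knockout the 4 medians were 0.391, 0.668, 1.31 and 2.86. *Braf*, *Araf* and *Map2k2* lay between the quartiles of their length class in both libraries, as did *Mapk3* in the knockout. *Hras* and *Map2k1* lay below the lower quartile in both libraries and *Mapk3* in the control. *Nras* lay above the upper quartile in both. The span of *Araf* includes transcript models that start far upstream of its RefSeq start, which lies in chrX:20848293-20848592. Whether reads in introns were counted is not given in the sources used here, and the part of unspliced RNA in these ratios was not tested.

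**Figure D2:**
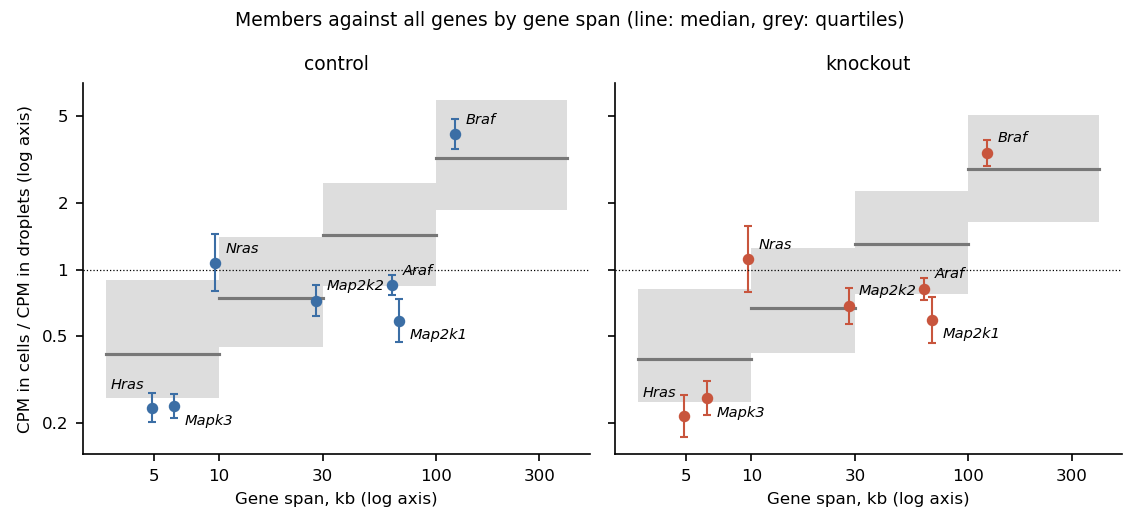
Ratio of CPM in cells to CPM in droplets without cells (vertical log axis) against gene span in kb (horizontal log axis) for the 7 members, with 95% counting intervals, in control (left) and knockout (right). Grey lines and bands are the median and quartiles of all genes with at least 100 UMIs in 4 length classes, the first and last drawn to 3 and 400 kb: the medians climb from 0.412 to 3.23 in the control, with *Hras* and *Mapk3* at the lower left and *Braf* at the upper right.

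Some loci share bases with a gene on the opposite strand. The last bases of *Braf* overlap *Ndufb2*, whose gene runs from 39592574 to 39603382 and which encodes a subunit of respiratory complex I. The end of *Araf* overlaps the end of *Syn1* (20860511 to 20921004), and *Uchl4* and *Gm48855* lie within *Map2k1*. The strand setting of the counting is not given in the sources used here, and whether any of these counts belong to the partner gene was not tested.

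Since capicua binds DNA at octamers, the promoters were read for its sites. RefSeq windows of 300 bases, from 250 before to 50 after the start (GRCm38.p6), were matched for 6 of the 7 members; *Mapk3* had no entry. The capicua octamers TGAATGAA and TGAATGGA, searched on both strands, were in 0 of these 6 windows, and either was in 2.47% of 32851 windows of all genes. The cyclic AMP response element TGACGTCA, which CREB proteins bind, occurred 2 times in the *Braf* window, at 99 and 81 bases before the start, and in 1.79% of all windows. The GC box GGGCGG, which Sp1-type factors bind, was in 5 of the 6 windows and in 35.7% of all windows. The windows of *Braf* (the most abundant member), *Hras* (the lowest in cells against free RNA) and *Map2k1* (the member with a knockout level above the control) are shown 5′ to 3′ on the strand of the gene, with matches to TGACGTCA and GGGCGG or its complement in capitals. They lie at chr6:39725414-39725713, chr7:141193955-141194254 and chr9:64253556-64253855, all on the minus strand.
Braf: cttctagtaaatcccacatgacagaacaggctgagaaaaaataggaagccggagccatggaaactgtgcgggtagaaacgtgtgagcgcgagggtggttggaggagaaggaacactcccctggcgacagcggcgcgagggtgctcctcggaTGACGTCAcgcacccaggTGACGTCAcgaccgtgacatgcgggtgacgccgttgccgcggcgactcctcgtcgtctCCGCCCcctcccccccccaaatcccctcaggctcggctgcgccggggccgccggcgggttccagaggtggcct
Hras: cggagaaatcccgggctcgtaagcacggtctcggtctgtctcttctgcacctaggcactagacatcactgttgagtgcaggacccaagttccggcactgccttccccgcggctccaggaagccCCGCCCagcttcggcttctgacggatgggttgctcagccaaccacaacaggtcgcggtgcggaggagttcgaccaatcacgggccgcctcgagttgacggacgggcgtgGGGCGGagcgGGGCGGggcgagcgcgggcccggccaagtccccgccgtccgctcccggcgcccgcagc
Map2k1: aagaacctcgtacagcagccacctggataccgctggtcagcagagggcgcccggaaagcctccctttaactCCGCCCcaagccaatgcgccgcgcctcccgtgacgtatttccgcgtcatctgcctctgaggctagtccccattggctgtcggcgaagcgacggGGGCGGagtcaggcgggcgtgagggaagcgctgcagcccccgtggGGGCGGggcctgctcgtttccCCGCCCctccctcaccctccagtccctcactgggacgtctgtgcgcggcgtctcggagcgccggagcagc
The 3 windows hold between 65.0% and 69.0% G and C and between 30 and 34 CpG dinucleotides, where the median of all windows is 52.7% and 7. The windows not shown hold less, at 60.7% and 28 CpG for *Map2k2*, 52.3% and 19 for *Nras*, and 52.0% and 14 for *Araf*. TGACGTCA and GGGCGG were searched after the windows had been read. A match is a string of letters and was not tested as a binding site.

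Between genotypes the members differed little. Of the 7 members 0 passed 1.5-fold in either direction, where 4.39% of 9449 genes with at least 100 UMIs did. The summed members stood at 792 CPM (771 to 814) in control cells and 728 CPM (697 to 761) in knockout cells, a ratio of knockout to control of 0.919 (0.872 to 0.968). In the knockout 6 members were lower and *Map2k1* was higher, where 48.8% of all genes tested were lower. The median log2 ratio was -0.15 over the members and 0.01 over all genes tested.

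The ratio was furthest below 1 in the RAS tier, at 0.826 (0.690 to 0.986) for *Hras* and *Nras* together. *Hras* alone had a ratio of 0.815 (0.642 to 1.03) and *Nras* of 0.843 (0.634 to 1.11). In the RAF tier, at 0.921 (0.865 to 0.980), *Braf* had a ratio of 0.902 (0.833 to 0.975) and *Araf* of 0.955 (0.860 to 1.06). *Braf*, the member with the most UMIs, was the single member whose interval left out 1. The share of all genes with such an interval is not given here. Of the 9449 genes, 24.2% had a lower ratio than *Braf*. For *Hras*, *Nras* and *Mapk3* this share was 10.0%, 13.6% and 16.7%, and for *Map2k2*, *Araf* and *Map2k1* it was 31.2%, 36.6% and 83.1%. In the MEK tier, at 1.01 (0.880 to 1.16), *Map2k1* had a ratio of 1.18 (0.932 to 1.49) and *Map2k2* of 0.932 (0.783 to 1.11). The ratio of *Mapk3* was 0.863 (0.717 to 1.03).

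These ratios took other values in each sex and after thinning, with intervals that overlapped, and the cause was not tested. In cells with an *Xist* UMI and no Y-linked UMI (227 control, 176 knockout), the ratio of *Braf* was 0.996 (0.868 to 1.14) and that of *Mapk3* 0.674 (0.478 to 0.943). In cells with a Y-linked UMI and no *Xist* UMI (702 and 194), *Braf* was at 0.888 (0.798 to 0.986) and *Mapk3* at 0.948 (0.743 to 1.199). With every cell thinned to 2000 UMIs, so that each weighed the same, the ratio of *Map2k1* turned to 0.888 (0.521 to 1.46) and that of *Nras* was 0.646 (0.349 to 1.13), on fewer UMIs than the minimum of 100. The summed members stayed between 0.874 and 0.938 under 12 alternatives, with an interval that held 1 in female cells (0.858 to 1.03). In cells of either sex the interval of the RAS tier held 1, at 0.591 to 1.12 (female) and 0.689 to 1.10 (male). It also held 1 when thinned (0.498 to 1.10), under quality limits (0.685 to 1.003) and with at least 1 *Reln* UMI (0.712 to 1.01). That of the RAF tier held 1 in female cells (0.876 to 1.09).

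**Figure D3:**
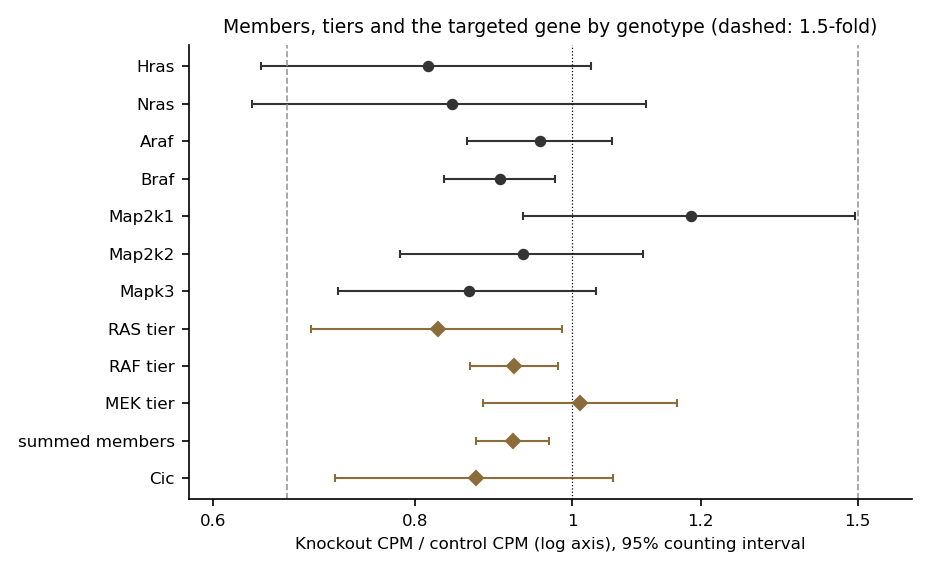
Ratio of knockout CPM to control CPM (horizontal log axis) for the 7 members (circles) and for tiers, the sum and *Cic* (diamonds), with 95% intervals that cover counting error only. All points lie inside the dashed lines at 1.5-fold, and *Braf*, the RAS and RAF tiers and the sum have intervals below 1.

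*Araf* is the X-linked member, and the libraries pooled different numbers of males and females. In control cells it stood at 205 CPM in female cells and 193 CPM in male cells, a ratio of female to male of 1.06 (0.929 to 1.21). In knockout cells the levels were 193 and 180 CPM, a ratio of 1.08 (0.897 to 1.29). Neither interval left out 1. Of members with at least 100 UMIs, 0 of 7 in the control and 0 of 5 in the knockout passed 1.5-fold between the sexes. Over all genes tested, 3.53% and 3.87% did. Under that minimum, knockout *Nras* was at 18.8 CPM (23 UMIs) in female and 31.5 CPM (45 UMIs) in male cells. Its ratio of 0.596 was past 1.5-fold, with an interval that held 1 (0.344 to 1.01). The summed members had ratios of 0.979 (0.915 to 1.05) and 1.00 (0.914 to 1.10).

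CR cells were next split by RNA of *Cck*, the gene of the neuropeptide cholecystokinin, of *Grik1*, a kainate receptor subunit, and of *Chst8* or *Alkal2*, which encode a sulfotransferase and a ligand of the receptor tyrosine kinases ALK and LTK. A cell counted as positive with at least 1 UMI. There were 324 control and 110 knockout cells with *Cck*, 194 and 70 with *Grik1*, and 232 and 91 with *Chst8* or *Alkal2*, and cells could belong to more than 1 of these groups. Positive cells had more UMIs in each group (medians of 6397 against 6148 for *Cck*, 6521 against 6145 for *Grik1* and 6720.5 against 6059 for *Chst8* or *Alkal2* in the control), and the part of depth in the differences was not tested.

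By *Cck*, the members hardly differed in the control. The summed members stood at 776 CPM in positive and 801 CPM in negative control cells, a ratio of 0.969 (0.915 to 1.03), and 0 of 7 members passed 1.5-fold, where 5.07% of genes did. In the knockout they stood at 658 and 756 CPM, a ratio of 0.870 (0.786 to 0.962), and 1 of the 5 members with at least 100 UMIs passed, where 8.28% of genes did. This was *Map2k1*, at 27.6 CPM (22 UMIs) in positive and 44.6 CPM (88 UMIs) in negative cells, a ratio of 0.619 (0.369 to 0.997), which was 0.924 (0.688 to 1.23) in the control. Without the respiratory-high cells described further on, its interval held 1, at 0.671 (0.376 to 1.14).

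*Nras*, with 71 UMIs under the count minimum in the knockout, showed the lowest value. In *Cck*-positive knockout cells it was at 13.8 CPM (11 UMIs) and in negative ones at 30.4 CPM (60 UMIs), a ratio of 0.454 (0.215 to 0.872), while in the control it was at 32.8 and 29.2 CPM, a ratio of 1.12 (0.832 to 1.51). Set between the genotypes, *Nras* in *Cck*-positive cells had a ratio of knockout to control of 0.422 (0.202 to 0.799), and in negative cells of 1.04 (0.753 to 1.43). The RAS tier in *Cck*-positive cells was at 45.2 CPM in the knockout against 76.9 CPM in the control, a ratio of 0.588 (0.399 to 0.846). The ratio of positive to negative knockout cells lay between 0.289 and 0.478 for *Nras* under 11 alternatives, and its interval reached 1.59 where cells were thinned.

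By *Grik1*, 0 of 7 members passed 1.5-fold in the control and 0 of 5 with at least 100 UMIs in the knockout, where 6.82% and 7.91% of genes did. Under that minimum, knockout *Hras* and *Nras* were past 1.5-fold, at 0.573 (0.285 to 1.05) and 0.603 (0.264 to 1.22), with intervals that held 1. Without respiratory-high cells, knockout *Hras* was at 0.972 (0.435 to 1.97). Control *Mapk3* had a ratio of 0.880 (0.687 to 1.12), and of 0.685 (0.488 to 0.944) without respiratory-high cells. The summed members stood at 770 CPM in positive and 798 CPM in negative control cells, a ratio of 0.965 (0.901 to 1.03), and at 684 and 739 CPM in the knockout, a ratio of 0.926 (0.824 to 1.04). *Braf*, for example, was at 347 and 350 CPM in the control and at 283 and 322 CPM in the knockout, a ratio of 0.879 (0.733 to 1.05). In thinned knockout cells that ratio was 0.553 (0.346 to 0.848). The RAS tier was at 75.4 and 74.0 CPM in the control and at 39.1 and 66.8 CPM in the knockout, where the ratio was 0.586 (0.352 to 0.929) on 21 UMIs in positive cells. The interval of this ratio held 1 without respiratory-high cells, at 0.825 (0.476 to 1.36), and under the quality limits, at 0.633 (0.369 to 1.03). Between the genotypes, *Nras* in *Grik1*-positive cells had a ratio of 0.472 (0.204 to 0.971) on 9 knockout UMIs. In the knockout, 14 cells were positive for both *Cck* and *Grik1*, so these values share cells.

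By *Chst8* or *Alkal2*, *Braf* was higher in positive cells of both libraries. It was at 388 CPM in positive and 336 CPM in negative control cells, a ratio of 1.15 (1.05 to 1.26), and at 389 and 287 CPM in knockout cells, a ratio of 1.35 (1.17 to 1.56). This ratio lay between 1.07 and 1.16 in the control and between 1.32 and 1.81 in the knockout under 11 alternatives, the extremes of 1.07 and 1.81 coming from thinned cells. In thinned control cells its interval held 1 (0.888 to 1.28). The ratio of *Braf* was above those of 82.6% of control and 92.6% of knockout genes. In the knockout that of *Hras* was above 95.5% and that of *Mapk3* above 90.7%, against 31.9% and 56.7% in the control. *Mapk3* had ratios of 1.00 (0.804 to 1.25) and 1.31 (0.928 to 1.83) in control and knockout. The summed members had ratios of 1.04 (0.979 to 1.11) and 1.14 (1.03 to 1.25). Under quality limits the interval of the knockout sum held 1 (0.988 to 1.21). No member passed 1.5-fold (0 of 7 and 0 of 5), where 6.41% and 8.11% of genes did. *Hras* had a ratio of 0.895 (0.6699 to 1.18) in control cells and 1.45 (0.930 to 2.22) in knockout cells, and *Map2k2* of 1.06 (0.858 to 1.31) and 0.766 (0.530 to 1.09). Knockout *Map2k2* was past 1.5-fold under quality limits, at 0.640 (0.418 to 0.951), and without respiratory-high cells, at 0.621 (0.382 to 0.971). The share of all genes past it under these settings is not given here. *Araf* had ratios of 0.934 (0.818 to 1.06) in control and 0.859 (0.697 to 1.05) in knockout cells. Under the same alternatives its knockout ratio was 0.765 (0.607 to 0.957) and 0.735 (0.569 to 0.941).

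Between the genotypes, *Braf* in cells with *Chst8* or *Alkal2* had a ratio of knockout to control of 1.00 (0.870 to 1.15), and in cells without them of 0.853 (0.774 to 0.938). The summed members had ratios of 0.976 (0.886 to 1.08) and 0.895 (0.841 to 0.951) in the same 2 sets of cells. The intervals of the 2 summed ratios overlapped, and the difference between them was not tested.

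**Figure D4:**
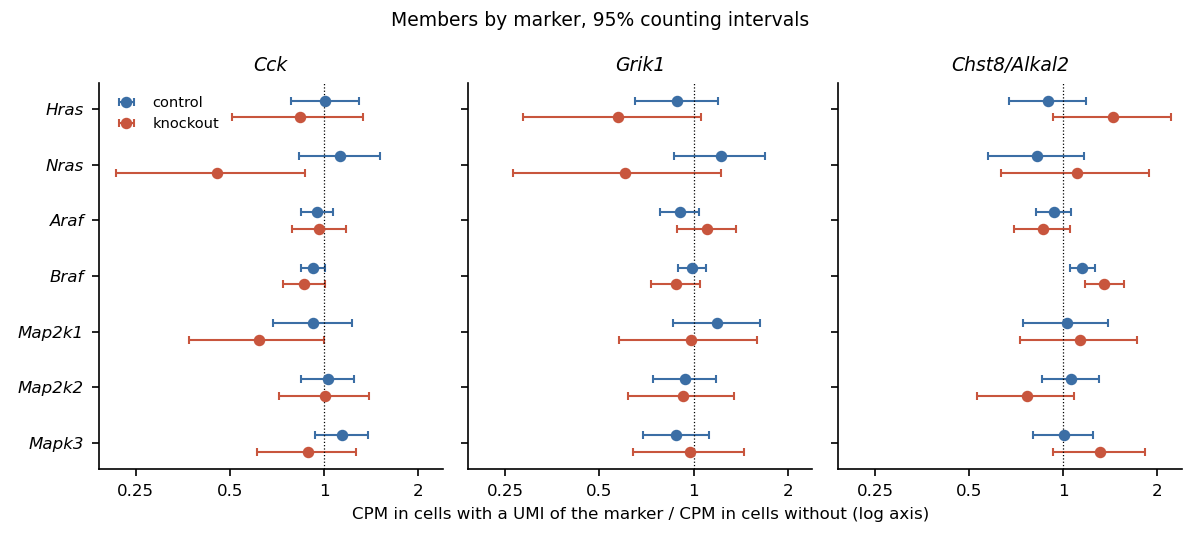
Ratio of CPM in cells with a UMI of the marker to CPM in cells without (horizontal log axis) for the 7 members, in control and knockout, with 95% counting intervals; panels are *Cck*, *Grik1* and *Chst8* or *Alkal2*. *Braf* lies above 1 in both libraries in the last panel, and *Nras* lies below 1 in the knockout in the first.

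The knockout cells were also split by RNA of *Etv4* or *Etv5*, which encode PEA3-type ETS factors. There were 162 knockout cells with a UMI of either and 228 without, with median depths of 7266 and 6210 UMIs. The summed members were at 729 CPM in cells with such a UMI and 727 CPM in cells without, a ratio of 1.00 (0.917 to 1.10). *Braf* was at 289 and 335 CPM, a ratio of 0.861 (0.750 to 0.988), *Araf* at 203 and 172 CPM, a ratio of 1.18 (0.985 to 1.40), and *Map2k1* at 47.2 and 33.8 CPM, a ratio of 1.40 (0.944 to 2.07). None of the 5 members with at least 100 UMIs passed 1.5-fold, where 4.99% of genes did.

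The widest differences among CR cells lay along the share of nuclear genes of the respiratory chain and ATP synthase (98 genes of the Nduf, Uqcr, Sdh and Atp5 families and of Cox4 to Cox8). In 83 control and 34 knockout cells this share was 1.8% or more. These cells had a median of 13502 UMIs in the control and 14229.5 in the knockout, against 6064 and 6419.5 in the other cells, and 33 and 14 cells lay near the limit, between 1.5% and 2.1%. Past 1.5-fold were 4 of 7 members in the control, where 52.3% of all genes were, and 3 of the 5 members with at least 100 UMIs in the knockout, where 47.0% were. The count of members is thus near the background, and the values of single members follow.

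The members split by gene. *Hras* was at 125 CPM (118 UMIs) in respiratory-high and 30.4 CPM in other control cells, a ratio of 4.11 (3.23 to 5.23), and at 109 and 22.3 CPM in the knockout, a ratio of 4.88 (3.22 to 7.39). *Mapk3* was at 159 and 53.2 CPM in the control, a ratio of 2.99 (2.44 to 3.65), and at 160 and 40.3 CPM in the knockout, a ratio of 3.97 (2.86 to 5.47). The ratio of *Hras* was above those of 94.9% of control and 96.3% of knockout genes, and that of *Mapk3* above 91.3% and 94.7%. With free RNA subtracted the ratios were 4.38 and 5.08 for *Hras* and 3.14 and 4.08 for *Mapk3*. With cells thinned to 2000 UMIs they were 3.52 (1.74 to 6.66) and 6.51 (2.17 to 17.9) for *Hras*, and 2.26 (1.28 to 3.77) and 2.39 (0.810 to 5.89) for *Mapk3*, the last with an interval that held 1.

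*Braf* went the other way. It was at 230 CPM in respiratory-high and 369 CPM in other control cells, a ratio of 0.623 (0.539 to 0.717), and at 243 and 328 CPM in the knockout, a ratio of 0.741 (0.598 to 0.909). With every cell thinned to 2000 UMIs this ratio was 0.633 (0.432 to 0.898) in control cells and 1.04 (0.616 to 1.67) in knockout cells, where few UMIs were left. *Map2k2* had ratios of 1.52 (1.21 to 1.91) and 2.03 (1.44 to 2.82), *Araf* of 1.19 (1.02 to 1.38) and 1.54 (1.24 to 1.90), *Map2k1* of 1.28 in both, and *Nras* of 0.931 and 0.886, the last 2 with intervals that held 1. Thinned, the ratio of *Map2k2* was 1.17 (0.569 to 2.18) in the control, short of 1.5-fold, and 2.45 (1.05 to 5.12) in the knockout. The thinned ratio of control *Araf* was 0.860 (0.549 to 1.29), on the other side of 1. Those of *Map2k1* (1.95 and 0.532) and *Nras* (0.189 and 1.59) moved widely on few UMIs. The summed members had a ratio of 1.18 (1.10 to 1.27) in the control, which was 0.981 when thinned, and of 1.41 (1.26 to 1.57) in the knockout.

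The balance of paralogs differed accordingly. *Braf* had 1.95 times as many UMIs as *Araf* in other control cells (1.81 to 2.0996) and 1.02 times as many in respiratory-high ones (0.839 to 1.24), and in the knockout 1.92 (1.70 to 2.17) and 0.921 times (0.700 to 1.21). *Hras* had 0.989 times as many UMIs as *Nras* in other control cells (0.796 to 1.23) and 4.37 times as many in respiratory-high ones (2.86 to 6.91), against 6.56 times in control droplets (5.02 to 8.72). *Map2k2* had 2.09 times as many UMIs as *Map2k1* in other control cells (1.75 to 2.50) and 2.49 times in respiratory-high ones (1.70 to 3.71). The excess of *Hras* over *Nras* in all control cells was thus not seen in the cells under the limit.

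Across 5 steps of the respiratory share, *Braf* was lower at each step, in the control at 406, 364, 355, 294 and 230 CPM, and in the knockout at 358, 340, 296, 279 and 243 CPM. *Hras* was at 18.95, 35.6, 29.4, 46.0 and 125 CPM in the control and at 20.2, 26.3, 20.1, 11.2 and 109 CPM in the knockout, where the fourth step held 2 UMIs in 30 cells. *Mapk3* was at 41.7, 50.1, 61.3, 94.6 and 159 CPM in the control and at 34.4, 44.2, 45.1, 16.8 and 160 CPM in the knockout, with 3 UMIs in the fourth step. Intervals of neighbouring steps mostly overlapped. In both libraries the step from 1.2 to 1.8% to 1.8% or more was the widest for *Hras*.

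The same length classes also split the genes here. In the control, the median ratio of respiratory-high to other cells was 1.86 over 1407 genes under 10 kb, 1.15 from 10 to 30 kb, 0.833 from 30 to 100 kb and 0.644 over 1602 longer genes, and in the knockout 1.93, 1.13, 0.865 and 0.707. *Hras* was above the upper quartile of its class in both libraries (3.68 and 4.27), *Mapk3* lay below it, and *Braf* lay between the quartiles of the longest genes (control, 0.538 to 0.783; knockout, 0.577 to 0.868). The part of gene length in the differences among members was not tested.

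Without the respiratory-high cells, the comparison of genotypes kept its direction for the summed members, at 0.886 (0.836 to 0.938). *Mapk3* was then at 40.3 CPM in the knockout and 53.2 CPM in the control, a ratio of 0.757 (0.594 to 0.957), and *Hras* at 22.3 and 30.4 CPM, a ratio of 0.733 (0.527 to 1.00). Within the respiratory-high cells, the ratio was 1.00 (0.744 to 1.35) for *Mapk3*, 0.870 (0.607 to 1.23) for *Hras* and 1.06 (0.939 to 1.19) for the sum.

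**Figure D5:**
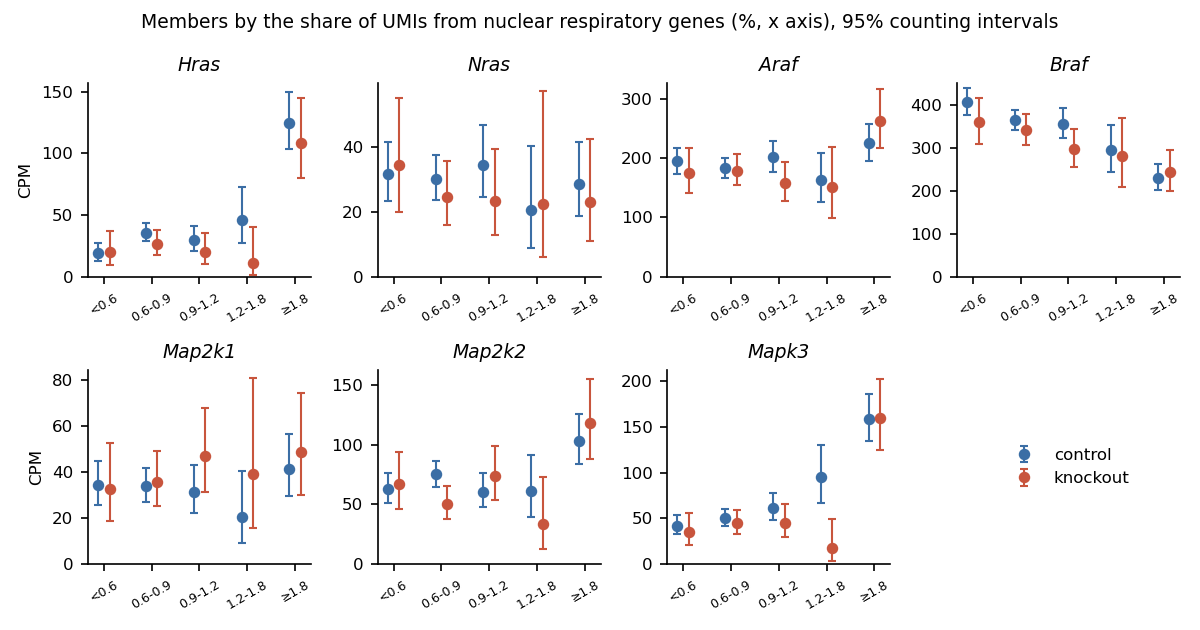
CPM of each member (vertical axis, from 0) in 5 steps of the share of UMIs from nuclear respiratory genes (horizontal axis, %), in control and knockout cells, with 95% Poisson intervals. *Hras* and *Mapk3* are highest at 1.8% or more in both libraries, and *Braf* is lower at each step.

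The rest of the pathway was read from a list of 64 genes, of which 47 had at least 100 UMIs. By genotype 4 passed 1.5-fold upward and 2 downward, where 2.73% and 1.66% of all genes tested did, and the median log2 ratio over the 47 was 0.01, as over all genes tested. Of the 7 measured adaptors and exchange factors, *Shc3*, an adaptor that binds phosphorylated receptors, was at 0.757 CPM (5 UMIs) in the control and 35.4 CPM (98 UMIs) in the knockout, a ratio of 46.8 (19.4 to 147). The exchange factor genes *Sos1* and *Sos2*, which act directly on RAS, had ratios of 1.02 (0.895 to 1.17) and 1.08 (0.933 to 1.25), and *Frs2*, an adaptor of fibroblast growth factor receptors, of 0.991 (0.847 to 1.16).

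Neither the brakes on RAS nor the scaffolds held a gene past 1.5-fold. The 7 measured RAS GTPase-activating protein genes had ratios between 0.865 and 1.17, with neurofibromin (*Nf1*) at 230 and 238 CPM and a ratio of 1.03 (0.941 to 1.13). *Rasa3* and *Rasal2* had ratios of 0.967 (0.861 to 1.08) and 1.09 (0.973 to 1.22). Among 8 scaffolds and modulators, *Iqgap1*, which binds RAF, MEK and ERK, was at 146 CPM in control and 98.3 CPM in knockout cells, a ratio of 0.674 (0.587 to 0.772). *Pebp1*, an inhibitor of RAF, had a ratio of 1.00 (0.910 to 1.105), and the scaffold gene *Cnksr2* of 0.889 (0.802 to 0.984).

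Below ERK, the 5 measured kinase genes had ratios between 0.769 and 1.02, with the lowest for *Rps6ka3*, a ribosomal S6 kinase, at 113 CPM in control and 87.1 CPM in knockout cells (0.662 to 0.890). The related *Rps6ka5* and *Rps6ka2* had ratios of 0.871 (0.781 to 0.970) and 0.855 (0.681 to 1.07). Among 9 measured outputs and feedback genes, *Etv4* (36.0, 20.6 to 68.8), *Etv5* (4.73, 3.69 to 6.08) and *Spred1*, an inhibitor of RAS and RAF (1.73, 1.40 to 2.14), passed 1.5-fold upward. The immediate early genes *Egr1*, at 101 CPM in control and 40.8 CPM in knockout cells (0.406, 0.3298 to 0.497), and *Ier2* (0.617, 0.479 to 0.786) passed downward, while *Fos* had a ratio of 0.937 (0.880 to 0.997). *Spred2*, a relative of *Spred1*, had a ratio of 1.11 (0.978 to 1.25). The 11 measured genes of other MAP kinase modules lay between 0.786 and 1.33, with the abundant JNK genes *Mapk8* at 0.914 (0.836 to 0.997) and *Mapk10* at 0.943 (0.865 to 1.03) and *Map2k4*, a kinase of JNK, at 0.962 (0.821 to 1.13). *Etv4*, *Etv5*, *Shc3* and the feedback genes were listed with earlier results of these data known and are given as a description.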

How the data were processed

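Droplet-based 3′ single-cell libraries of sorted CR cells were processed with Cell Ranger. The study's methods, the header of the matrices (Cell Ranger 4) and the submitters' processing notes (Cell Ranger 8.0.1) differ in the version and in the mouse build named. The deposited values are raw UMI counts per gene and barcode, as the authors deposited them, and whether introns and strand were used is not given in the sources used here. Of 32285 gene IDs, 32235 were found in GENCODE M21 (GRCm38), from which positions were taken.

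Counts were analysed with Python 3.11.15, numpy 2.4.6 and scipy 1.17.1. Cells were barcodes with at least 2000 UMIs and 5 *Reln* UMIs. UMIs were summed per library and divided by the sum outside 182 mt-, Rpl, Rps and Mrp genes (S6 kinase genes were kept). Matrices held 16336796 (control) and 6777071 (knockout) UMIs, of which cells held 6981296 and 2937321. With 1 library per genotype, exact 95% intervals for counts and for ratios of counts were given and no p-value. "Past 1.5-fold" was counted over genes with at least 100 UMIs in the compared cells together. Genes of the pathway list were named if they were among the 3 most abundant of their class or past 1.5-fold. *Mapk14*, *Spred3*, *Dusp5* and *Spry4* were outside this rule and were named after their values were seen. *Cic*, as the targeted gene, and the genes most like the summed members were also named. No doublet caller was run; quality limits at 3 median absolute deviations, which left 969 and 378 cells, were an alternative. Others were the UMI and *Reln* minimums, thinning to 2000 UMIs (1 seeded draw), subtraction of free RNA, other totals, removal of respiratory-high cells, and each sex alone. The members and gene lists were chosen with earlier results of these data known. Scripts were tested on simulated data.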

Additional observations from a re-analysis of the deposited data

Results flagged for a closer look

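Barcodes of at least 2000 UMIs with fewer than 5 *Reln* UMIs were left out of every comparison, and they held UMIs of the core. In the control, 8 such barcodes held 22 UMIs of the 7 members, or 598 CPM (375 to 906), among them 9 of *Hras* and 3 of *Braf*. In the knockout, 16 such barcodes held 33 UMIs, or 696 CPM (479 to 978), with 7 each of *Hras* and *Braf*. They are listed because they lie outside the compared cells and are above the limit that a count of 0 allows. Their summed level lay within counting error of that of the *Reln*-positive cells, but the make-up of the sum differed. *Reln*-positive cells held 290 *Hras* and 2306 *Braf* UMIs in the control and 99 and 871 in the knockout.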

How the results depend on the processing

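Of 864 ratios of members and their sum recomputed under an alternative, 59 lay on the other side of 1 from the reported ratio, 23 of them from thinning to 2000 UMIs, which leaves few counts per gene. In 3 of the 59 the reported interval had left out 1, all 3 thinned: the respiratory-high ratios of *Araf* (0.860) and the sum in the control, and of *Braf* in the knockout (1.04). Thinned, with no minimum of UMIs, 1 member was past 1.5-fold by genotype in place of 0 (*Nras*). Thinned, the ratio of *Nras* by *Grik1* in the knockout was 1.05 in place of 0.603, and the summed members had ratios of 0.698 (*Grik1*, knockout), 0.981 and 1.617 (respiratory-high, control and knockout) and 0.878 (*Etv4* or *Etv5*). The cause was not tested. The summed ratio of genotypes lay between 0.874 and 0.938 under 12 alternatives, and its interval held 1 in female cells (0.858 to 1.03). The interval of *Braf* by genotype held 1 in female cells (0.868 to 1.14) and when thinned (0.749 to 1.02). No paired analysis was possible because each genotype was 1 library. Members with few UMIs, *Nras*, *Hras* and *Map2k1* in the knockout, allow only wide intervals, and no interval here covers the spread between animals.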

Other observations

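With cells sorted into exclusive groups (*Chst8* or *Alkal2* first, then *Cck*, then *Grik1*, then none), the summed members in control cells stood at 818 CPM (774 to 863), 760 CPM (719 to 802), 794 CPM (736 to 856) and 798 CPM (763 to 835). In knockout cells the same 4 groups stood at 798 CPM (736 to 864), 627 CPM (564 to 695), 687 CPM (597 to 787) and 744 CPM (694 to 796). *Cck* cells had the lowest value in both libraries, but in the control their interval overlapped those of all other groups. In the knockout it did not overlap that of *Chst8* or *Alkal2* cells. It did overlap that of *Grik1* cells and, narrowly, that of cells with none.

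Among 5958 genes with at least 272 UMIs, those whose log2(CPM + 1) over these 8 groups was most like the summed members were *Atp11a* (Pearson's r = 0.976), *Mapkapk2* (0.968), which encodes a kinase under the p38 MAP kinases, *Alg2* (0.963), *C2cd2* (0.956) and *Hnrnpa1* (0.953). The 8 groups come from 2 libraries and share their depth and sort, so these are descriptions of likeness with no test.

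*Mapk14*, which encodes p38α, had the highest ratio by genotype among the 11 other MAP kinase genes with at least 100 UMIs, at 49.1 CPM in control and 65.0 CPM in knockout cells, a ratio of 1.33 (1.10 to 1.596). The feedback gene *Spred3*, under the count minimum, had 29 control and 39 knockout UMIs, a ratio of 3.21 (1.93 to 5.38). *Dusp5*, an ERK phosphatase gene, had 65 and 12 UMIs, a ratio of 0.441 (0.217 to 0.823), and *Spry4* had 1 and 24 UMIs. These 4 genes were picked after their values were seen.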
